A study of Drosophila melanogaster with 15 samples.

Results

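The Drosophila genes wus, Rab23 and crok, 3 genes of membrane traffic and cell junctions, were followed in whole embryos that lacked the transcription factor Svb or the Pri peptides. They were found by symbol or public identifier (CG9089, CG2108 and CG17218) in a table of 149 genes that the authors had selected, and each matched 1 of the 18952 probe sets of the array. Selection for that table used the arrays analysed here and asked for a fall in both mutants that went further without pri. For each member the direction of a change is thus no independent evidence, and the p-values below describe how the differences stand against the spread between arrays.

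The embryos were wild type (wt) or mutants labelled svb -/- (allele svbR9) or pri -/- (allele pri1), all aged 13 to 15 h after egg laying. The embryos of the 3 genotypes were laid within 2 h at 25 °C and then kept at 18 °C. The mutants came from stocks kept over balancer chromosomes that carry green fluorescent protein, and were picked by hand. Each genotype had 5 samples of 200 whole embryos, each read on 1 Affymetrix array. The labels name neither the wt strain nor the sex of the embryos, so stock background and sex cannot be told apart from genotype. In RNA of whole embryos, fewer cells of a type and less RNA per cell cannot be told apart either.

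Around this age, as the paper times it in embryos kept at 25 °C, epidermal cells build trichomes, the hairs and denticles of the larva. They also deposit cuticle, which requires heavy traffic of membrane and secreted cargo towards the apical surface. The embryos here were kept at 18 °C, and their stage was not checked. The gene wus (wurst) encodes a transmembrane protein with a J domain that works with clathrin in endocytosis and is needed to clear the airways of matrix and liquid before hatching. Rab23 encodes a small GTPase of vesicle traffic. In Drosophila it takes part in planar cell polarity and limits the number of hairs a wing cell forms, and in mice its relative restrains Hedgehog signalling. The gene crok (crooked) encodes a small membrane-anchored protein of the Ly6 family that is needed to assemble septate junctions, the seals between epithelial cells that also set the size of tracheal tubes.

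All 3 genes had lower signals in pri mutants than in wt, with by far the deepest fall for wus. In svb mutants 0 of the 3 passed the test (limma, with 0 at an unadjusted p under 0.05, and 0 by the exact permutation test). By in situ hybridization the paper reports Rab23 as reduced in svb mutants and raised by ectopic svb. It lists wus as unchanged in svb mutants and crok as not examined. By chromatin immunoprecipitation it lists Svb binding peaks near wus and Rab23 but not near crok. The paper describes Svb as a dominant repressor when pri is absent. It therefore used a further fall in pri as a criterion for genes regulated by Svb. The paper also states that arrays of whole svb embryos often showed just a modest fall of proven targets. Not passing here thus does not show that a gene is independent of svb. Across the 8631 probe sets bright enough to be tested (a mean log2 signal of 5 or more, equal to a signal of 32, in 1 genotype or more), 23.1% were called lower in pri than in wt and 4.00% lower in svb than in wt by limma at an adjusted p under 0.05. A fall in pri was thus common on these arrays. All 3 members passed this filter on low signals.

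**Figure D1:**
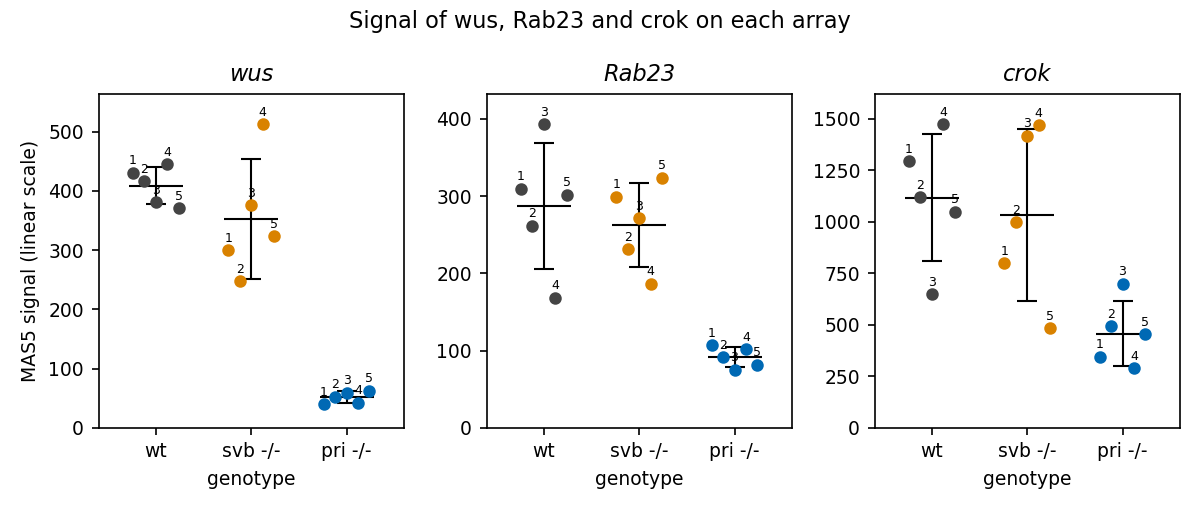
MAS5 signal (linear scale, from 0) of wus, Rab23 and crok in the 5 arrays of each genotype. Points are arrays with their replicate number, the long bar is the mean and the whiskers are 1 SD. The pri arrays of wus (39.9 to 62.8) and Rab23 (75.4 to 107) lie below every other array, whereas those of crok reach 699 and overlap with both other genotypes.

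For wus the wt arrays read 431, 417, 381, 444 and 371. The svb arrays read 300.0, 247, 376, 513 and 323, and the pri arrays 39.9, 52.7, 59.2, 42.6 and 62.8. The pri arrays were all far below those of the other genotypes. Arrays of svb and wt overlapped, since svb replicate 4 was the brightest of all and 3 of the 5 svb arrays lay below the lowest wt array. The genotype means were 409 ± 31.6 in wt, 352 ± 101 in svb and 51.4 ± 10.04 in pri (SD, n = 5). In pri mutants wus was 8.05-fold lower than in wt (95% interval 6.16 to 10.5, limma adjusted p = 6.35e-09), leaving 12.4% of the wt level in the fit. Of the 8631 tested probe sets, 32 (0.371%) fell further, and among the 134 genes of the authors' table that could be named it had the 10th deepest fall by rank. Set against svb mutants, the pri level was 6.73-fold lower (5.15 to 8.80, limma adjusted p = 1.70e-08).

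In svb mutants the fitted level of wus was 83.6% of wt, with a 95% interval from 64.0% to 109% (limma adjusted p = 0.524). The interval covers a reduction of that size as well as no change. The array of svb replicate 4, on which wus was highest, stood apart from the other arrays of its genotype on the first principal component (86.9 against 8.52 to 45.5, with 57.3% of the variance). It also had the lowest median signal of the 15 arrays, 9.49 against 11.99 to 17.0. Without it the log2 fold change of wus between svb and wt went from -0.26 to -0.40 (limma adjusted p = 0.156), and with array quality weights, which gave that array a weight of 0.214, to -0.48 (limma adjusted p = 0.05003, just above the threshold).

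For Rab23 the wt arrays read 309.7, 262, 393, 168 and 302. The svb arrays read 299, 231, 272, 187 and 324, and the pri arrays 107, 91.7, 75.4, 102 and 82.0. All svb arrays lay within the range of wt, whereas the brightest pri array was below the dimmest array of either other genotype. The means were 287 ± 81.8 in wt, 263 ± 54.6 in svb and 91.5 ± 13.1 in pri (SD, n = 5). Rab23 was 3.05-fold lower in pri than in wt (95% interval 2.25 to 4.13, limma adjusted p = 2.44e-05) and 2.84-fold lower than in svb (2.10 to 3.85, limma adjusted p = 3.03e-05). Further falls between pri and wt were found at 190 tested probe sets, or 2.20%.

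The level of Rab23 in svb mutants was 93.2% of wt, with a 95% interval from 68.8% to 126% (limma adjusted p = 0.874). The sign of this small difference rested on single arrays. The log2 fold change of -0.10 became 0.015 without svb replicate 4 and 0.026 without wt replicate 3, the wt array on which Rab23 was brightest.

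For crok the wt arrays read 1294, 1119.6, 649.7, 1474.5 and 1048. The svb arrays read 799, 999, 1418, 1469.9 and 482, and the pri arrays 346, 492, 699, 289.5 and 454. This gene varied the most within the mutants, its brightest svb array being 3.05 times its dimmest, and 1 pri array (replicate 3) overlapped with the wt range. The means were 1117 ± 309 in wt, 1034 ± 418 in svb and 456 ± 158 in pri (SD, n = 5). With this spread crok still passed in pri against wt, where it was 2.48-fold lower (95% interval 1.58 to 3.88, limma adjusted p = 0.00321), and in pri against svb, where it was 2.20-fold lower (1.40 to 3.44, limma adjusted p = 0.00642). Between the mutants 24.7% of the tested probe sets were called lower in pri.

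In svb mutants crok stood at 88.8% of wt, with a 95% interval from 56.7% to 139% (limma adjusted p = 0.849). Its log2 fold change of -0.17 turned to 0.075 without svb replicate 5, the dimmest svb array. Every pri array lay below every wt array and every svb array for wus and Rab23 but not for crok, where 4 of the 5 pri arrays were below all of wt and 3 below all of svb. Such complete separation towards lower signals was found at 14.2% of all tested probe sets for pri against wt and at 13.8% for pri against svb.

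**Figure D2:**
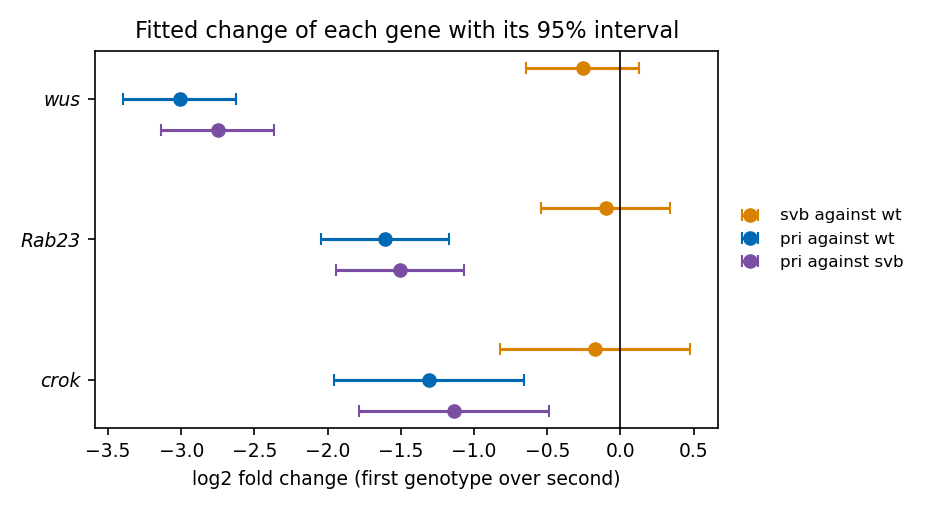
Fitted log2 fold change (horizontal axis) of wus, Rab23 and crok in the 3 comparisons between genotypes, with 95% intervals from the limma fit over 15 arrays. The svb intervals of all 3 genes span 0, and the pri against wt interval of wus (-3.40 to -2.62) lies wholly below those of Rab23 (-2.05 to -1.17) and crok (-1.96 to -0.66).

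The depth of the fall in pri set wus apart from the other two. Levels of different probe sets cannot be compared, but the change in their ratio on the same array can. The log2 ratio of wus to Rab23, set to 0 at its wt mean, was -1.40 ± 0.49 in pri (SD, n = 5) and ran from -1.98 to -0.91, below the whole wt range of -0.61 to 0.84. The ratio of wus to crok was -1.70 ± 0.32 in pri (SD, n = 5), from -2.16 to -1.36, again below the wt range of -0.33 to 0.63. For Rab23 against crok the pri arrays (-1.25 to 0.45, mean -0.30 ± 0.68) overlapped with wt (-1.17 to 1.24), so that the falls of these 2 genes did not differ beyond the spread between arrays. In svb mutants all 3 ratios overlapped with wt, with means of -0.16 for wus to Rab23, -0.09 for wus to crok and 0.07 for Rab23 to crok.

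Measures of the arrays themselves also leaned apart between genotypes, without passing at an adjusted p under 0.05. The median signal of all probe sets was 15.6 ± 0.853 in pri and 13.6 ± 0.931 in wt (SD, n = 5). The pri arrays (14.66 to 16.97) and the wt arrays (12.34 to 14.57) did not overlap. A two-sided exact permutation test gave p = 0.00794, the lowest value possible with 5 arrays a side, and 0.0952 after adjustment over 12 such comparisons. With this floor a single full separation cannot pass the adjustment alone, so not passing does not show that the arrays were alike. The log2 ratio of 3' to 5' signal of the eIF-4a control, a sign of RNA or labelling quality, was 2.97 ± 0.320 in wt, 2.58 ± 0.111 in svb and 2.55 ± 0.172 in pri (SD, n = 5; adjusted p = 0.0952 for either mutant against wt by exact permutation tests). Their part in the changes of the 3 genes was not tested. Quantile normalisation gives every array the same distribution of signals and does not address the 3' to 5' ratio. With it the log2 fold changes between pri and wt were -3.06 for wus, -1.62 for Rab23 and -1.29 for crok. As deposited they were -3.01, -1.61 and -1.31.

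The genes of the authors' table whose course over the 15 arrays was most like each member differed between the 3. Likeness was the root mean square difference of log2 signals, each gene taken from its own wt mean, among 133 other named genes. All these genes share the arrays and the authors' selection, so this is a description. For crok the closest were mRpL51, a mitochondrial ribosomal protein (0.135), Ufc1, the conjugating enzyme of the ubiquitin-like protein UFM1 (0.137), and CG30423 (0.171), against a median of 0.634 over the named genes. They followed crok not just from genotype to genotype but from array to array. Within genotypes the log2 signal of crok had a pooled SD of 0.54, while its difference from mRpL51 on the same array had an SD of 0.13. Most of the spread of crok between replicates was thus shared on the same arrays with mRpL51, which was picked as the closest of the 133 genes.

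For wus the closest genes were CG14756 (0.186), CG5039 (0.235) and Mvd, an enzyme of the mevalonate pathway (0.265), with a median of 0.907 over the named genes. CG14756 was 8.14-fold and Mvd 7.89-fold lower in pri than in wt, close to wus itself. For Rab23 they were PTPMT1, a mitochondrial phosphatase (0.227), CG9095 (0.267) and qua, a villin-like actin-binding protein (0.289), with a median of 0.635. Less of the spread within genotypes was shared here than for crok. The pooled SD of wus was 0.29, and its difference from CG14756 had an SD of 0.17. For Rab23 the pooled SD was 0.34, and its difference from PTPMT1 had an SD of 0.25. The members were not close to each other. Among the 133 other genes, crok ranked 101 and Rab23 ranked 73 in likeness to wus.

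**Figure D3:**
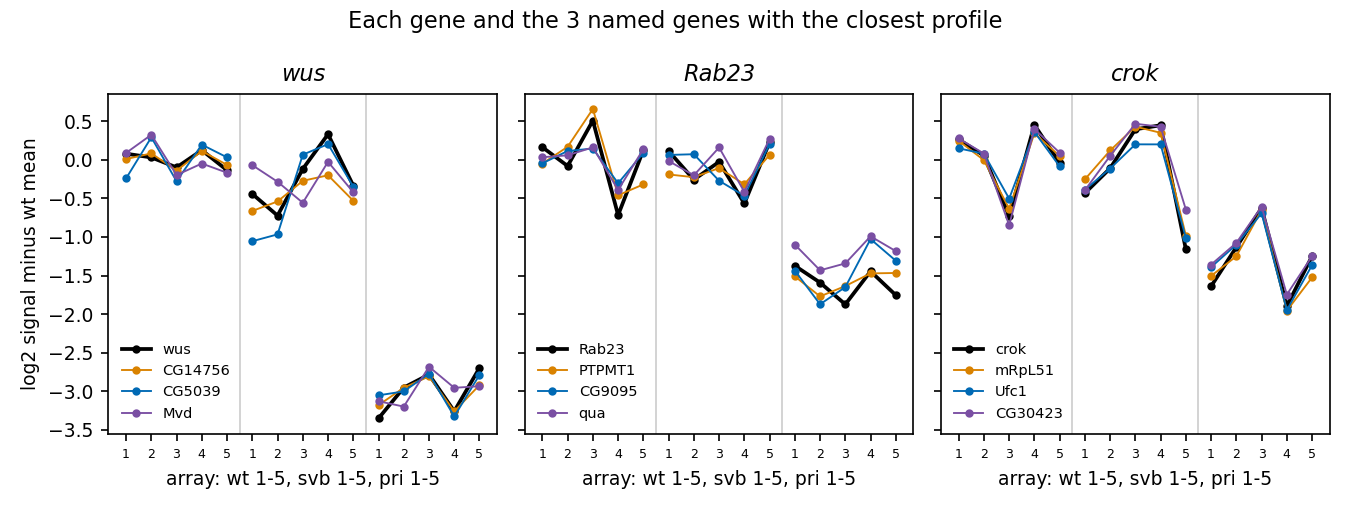
Log2 signal minus the gene's wt mean (vertical axis) on the 15 arrays for each member (black) and the 3 named genes with the closest course (coloured); grey lines part the genotypes. Genes close to crok rise and fall with it from array to array within each genotype, at a root mean square difference of 0.135 to 0.171.

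Within genotypes, crok and Rab23 tended to go opposite ways, though not on every array. On wt replicate 1, svb replicate 3 and pri replicate 2 both genes lay above their genotype means. On wt replicate 3 crok had its lowest wt signal (649.7) and Rab23 its highest (393), on wt replicate 4 crok had its highest (1474.5) and Rab23 its lowest (168), and on svb replicate 4 and pri replicate 3 crok was again at its highest and Rab23 at its lowest for the genotype. Over the deviations of the 15 arrays from their genotype means, Pearson's r was -0.75 (p = 0.00317) and Spearman's rho -0.79 (p = 0.00186), both by permutation within genotypes, with adjusted p of 0.0285 and 0.0167 over 9 relations computed. The value was -0.81 within wt, -0.76 within svb and -0.88 within pri, and it was -0.75 without the 2 arrays whose Rab23 deviations lay farthest from the median (wt replicate 4 and svb replicate 4). This relation was noticed in the data before it was computed. Of the tested probe sets, 4.55% had an r with crok at or below that of Rab23.

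The deviations of wus leaned towards crok and away from Rab23, but neither relation passed the adjustment. For wus and crok, r was 0.61 (permutation p = 0.0482, adjusted p = 0.145) and rho 0.70 (permutation p = 0.0145, adjusted p = 0.0653). The within-genotype r was 0.77 among wt, 0.52 among svb and 0.79 among pri arrays. Without the 2 farthest arrays the pooled r was 0.68. For wus and Rab23, r was -0.53 (permutation p = 0.0216, adjusted p = 0.0973) and rho -0.54 (permutation p = 0.0483, adjusted p = 0.113), with -0.71 among wt, -0.51 among svb and -0.94 among pri arrays, and -0.60 without the 2 farthest arrays. The median signal of an array and its mean 3' to 5' ratio were set against the same deviations. None of these 6 relations passed, the adjusted p of r lying between 0.317 and 0.883, and that of rho between 0.113 and 0.504. With the median signal, however, the r within genotypes differed in sign and was large in places. For wus it was 0.11 among wt, -0.94 among svb and 0.55 among pri arrays, for crok 0.66, -0.27 and 0.93, and for Rab23 -0.27, 0.44 and -0.74. With the 3' to 5' ratio it lay between -0.72 (crok among svb arrays) and 0.59 (Rab23 among pri arrays). Each of these rests on 5 arrays and was not tested alone.

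**Figure D4:**
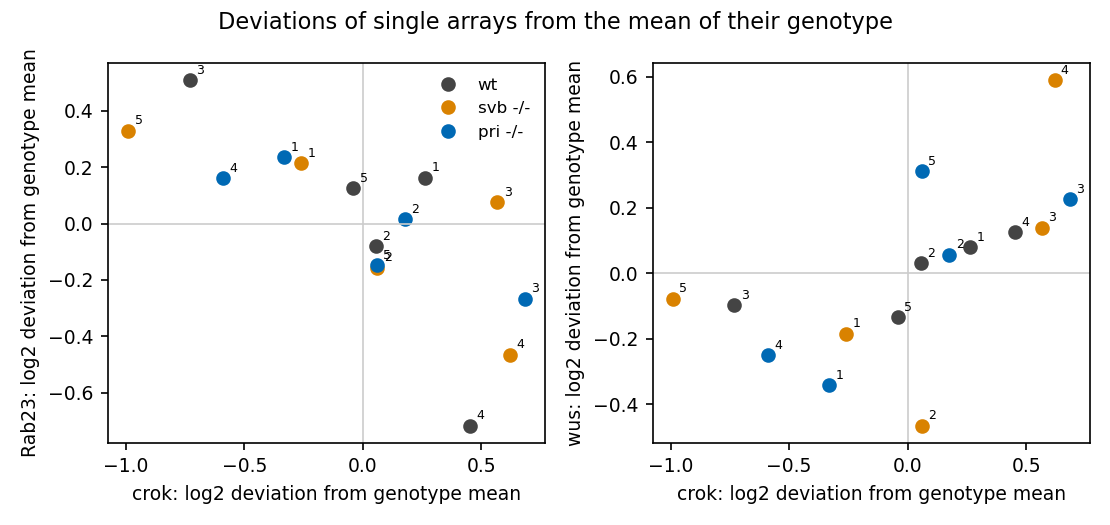
Deviation of single arrays from their genotype's mean log2 signal, with crok on the horizontal axis and Rab23 (left) or wus (right) on the vertical axis. Colours are genotypes and digits are replicate numbers. Arrays with more crok tended to have less Rab23 in each genotype (r = -0.81 in wt, -0.76 in svb, -0.88 in pri), with exceptions.

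Other genes of the same pathways could be followed by name where the authors' table holds them, and such genes were chosen for a fall in pri. Of the 134 named genes, 133 were called lower in pri than in wt, with a median log2 fold change of -1.69, and 14 were called lower in svb than in wt, with a median of -0.18. Over all tested probe sets 23.1% and 4.00% were called lower, with medians of -0.04 and -0.01. A fall in pri of the listed genes below is therefore what the table holds throughout and marks no list. The list of planar polarity and wing hair genes had 3 of its 21 members named, Rab23, pk and mwh. All 3 were called lower in pri, and their median log2 fold change of -1.61, that of Rab23 itself, was close to the median of the named genes. In svb mutants limma called 0 of the 3, and 1 (mwh) had an unadjusted p under 0.05. The core polarity gene prickle (pk) had a mean signal of 307 ± 53.5 in wt embryos, 302 ± 81.0 in the svb mutant and 139 ± 16.8 in the pri mutant (SD, n = 5), a 2.18-fold fall in pri (limma adjusted p = 0.000142). The gene mwh, which restrains actin in wing hair cells, had 133 ± 34.2 in wt, 81.4 ± 34.2 in svb and 34.1 ± 8.01 in pri (SD, n = 5), a 3.90-fold fall in pri (limma adjusted p = 2.40e-05). In svb its fitted level was 59.1% of wt (95% interval 40.8% to 85.7%, limma unadjusted p = 0.00833, adjusted p = 0.0958), and 4 of the 5 svb arrays lay below all of wt. By in situ hybridization the paper lists mwh as dependent on svb, both in svb mutants and with ectopic svb. The svb arrays of pk, from 230.1 to 423, overlapped with its wt arrays, from 247 to 370.3, as did those of Rab23.

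The lists of clathrin endocytosis, Rab GTPases and septate junctions, of 33 genes each, were represented by wus, Rab23 and crok alone, so nothing can be said here of their other members. The list of tracheal tube size and clearance had Sec23 and CHOp24, both of early secretion, of 22 genes, and both were called lower in pri, as were nearly all named genes. In svb the fitted level of CHOp24 was 58.9% of wt (95% interval 39.4% to 88.0%, limma unadjusted p = 0.0130, adjusted p = 0.126), and that of Sec23 was 95.3% (69.5% to 131%, limma adjusted p = 0.918). By in situ hybridization, however, the paper lists Sec23 as reduced in svb mutants, and CHOp24 as not examined. Of lists of 10 tracheal, 11 gut, 10 muscle, 10 neural and 10 blood and fat body markers, 0 genes could be named, so that a shift in the share of these tissues was not tested. The epidermal list had 5 of 12 genes named (sha, m, amd, vri and dyl), all chosen by the authors with the rest, of which 5 were called lower in pri, with a median log2 fold change of -2.67, and 2 (sha and m) in svb, where their median was -0.28. Beside the 133 of 134 named genes lower in pri, the 5 of 5 says nothing particular about the epidermis.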

How the data were processed

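The authors deposited linear signal intensities from MAS 5.0 (Affymetrix Expression Console 1.1), scaled to a trimmed mean of 100 on every array. The scaling assumes equal total signal in all genotypes, and dim values are unstable (down to 0.0198). The labels and the study's supplementary methods give different amounts of starting RNA. Detection calls and scan batches were not used here, and the genome build is not given in the sources used here, so no coordinates are printed.

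Of 149 rows in the authors' table, 145 had the same 15 values as 1 probe set (relative tolerance 1e-05), and 134 had 1 current symbol, updated through the RefSeq gene table (Release 6 plus ISO1 MT). Signals were taken to log2 without an offset. One limma 3.58.1 fit (R 4.3.3, eBayes with a trend) of the 3 genotype means over 15 arrays covered 8631 probe sets whose highest genotype mean was at least 5. The 183 control probe sets were left out. The Benjamini-Hochberg adjustment ran over all probe sets of a comparison, with a threshold of 0.05. On simulated data for pri against wt the fit found 80 of 100 probe sets changed 2-fold and 97 of 100 changed 4-fold, with 9 false calls. For svb against wt it found 71 and 97, with 8 false calls. For pri against svb it found 70 and 93, with 14 false calls. Each simulated probe set varied independently, and just 100 of each size were changed. In the data some probe sets varied together from array to array, and far more were called in pri. These counts may therefore not carry over to the data. Single values were compared by exact permutation tests (scipy 1.17.1), and correlations by 100000 permutations within genotypes.

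Named are the 3 members, for each the 3 genes with the closest course, and members of gene lists that the table holds. The members and lists were chosen with earlier results of these data known. Alternatives were 2 other scalings (quantile, median), an offset of 16 before log2, other filters, no trend, array weights, the replicate block, fits of 2 genotypes and leaving out each array. The number of arrays limits the precision, and nothing states how far the samples of a genotype were kept apart beyond being called independent.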

Additional observations from a re-analysis of the deposited data

How the results depend on the processing

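The falls of wus, Rab23 and crok in pri, against wt and against svb, kept their direction and passed under all alternatives run. Leaving out 1 array at a time gave log2 fold changes in pri against wt of -3.09 to -2.92 for wus, -1.79 to -1.48 for Rab23 and -1.49 to -1.16 for crok, with adjusted p up to 0.0108 for crok. In pri against svb the ranges were -2.87 to -2.60, -1.62 to -1.42 and -1.38 to -0.98, with adjusted p up to 0.0211 for crok without pri replicate 4. The other settings gave, in pri against wt, -3.06 to -2.66 for wus, -1.62 to -1.46 for Rab23 and -1.46 to -1.22 for crok. For wus the value of -2.66 came with the offset of 16. In svb against wt none of the 3 passed in any setting. There leaving out 1 array gave -0.40 to -0.14 for wus, -0.28 to 0.026 for Rab23 and -0.35 to 0.075 for crok. The sign turned for Rab23 without wt replicate 3 (0.026) or svb replicate 4 (0.015), and for crok without svb replicate 5 (0.075).

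The number of probe sets called in svb against wt, 519, was 321 with the filter at 6.5 and 330 with a fit of those 2 genotypes, which tested 6128 and 8162 probe sets. It was 917 with array weights, and the cause was not tested. Leaving out 1 array gave 355 to 569. Median centring took the share of lower calls in pri against wt from 55.8% to 45.4%.

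The main fit did not pair samples by replicate number. Of 15 same-numbered pairs, 7 had deviations correlated above 0.1 (range -0.61 to 0.37), and 5 of 15 correlated best with their own number. These values cannot tell whether samples that share a number were handled together. With the replicate block the counts were 411, 3361 and 3768 for svb against wt, pri against wt and pri against svb (519, 3566 and 3983 without it), and it changed no call of the 3 genes, the adjusted p of crok in pri against wt being 0.00784.

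The correlation of deviations between Rab23 and crok stayed between -0.82 and -0.68 with 1 array left out and between -0.74 and -0.71 under the other scalings and the offset, settings chosen after seeing the data. That of wus and crok lost an unadjusted p under 0.05 in 10 of 15 such fits (r from 0.52 to 0.73) and with the offset (0.60). That of wus and Rab23 lost it without svb replicate 4 (-0.36, permutation p = 0.121).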

Other observations

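Among the named genes, 2 other genes of membrane traffic lie outside the lists used above and were picked after their values were seen. Past1, an EHD family protein of endocytic recycling, had a mean signal of 461 ± 137 in wt embryos, 454 ± 86.5 in svb mutants and 215 ± 49.7 in pri mutants (SD, n = 5), a 2.13-fold fall in pri against wt (limma adjusted p = 0.000759) with no overlap between these genotypes. Gmap, a golgin of the Golgi apparatus, had 567.7 ± 102 in wt, 535 ± 133 in svb and 237 ± 53.1 in pri (SD, n = 5), a 2.41-fold fall (limma adjusted p = 0.000102), again with no overlap. Such separation towards lower signals was found at 14.2% of all tested probe sets and at 124 of the 134 named genes, among which the falls of Past1 and Gmap ranked 132 and 107 from the deepest. In svb against wt the log2 fold changes were 0.00 for Past1 and -0.10 for Gmap (limma adjusted p = 0.999 and 0.867).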
